A study of Rattus norvegicus with 6 samples.

Results

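The genes described here are those of the classical axon guidance families in rat nucleus pulposus cells, the cells found at the centre of the intervertebral disc. They were chosen by gene symbol: semaphorins, their neuropilin and plexin receptors, ephrins and Eph receptors, netrins and Unc5 receptors, and Slits with their Robo receptors. Of 17093 genes in the deposited tables, 64 matched, and the 40 that reached 1 in 3 or more of the 6 libraries were tested. The symbol pattern for the Unc5 receptors also took in Unc50, an RNA-binding membrane protein, and Unc5cl, a death-domain protein, neither of which is a netrin receptor. The study compared primary cells from male rats at passages 3 to 6. In the serum-starved group, 3 libraries, the medium held no fetal bovine serum for 48 h. In the control group, 3 libraries sampled at the same time, the medium held 10% serum. No genotype or strain is given in the labels. Whether the libraries of a group are separate animals or cultures is not stated either, so the p-values speak of sample-to-sample spread only, which may be technical.

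Guidance cues were first described as signals that attract or repel growing axons, and the same ligands and receptors act in vessels, bone and connective tissue. Secreted class 3 semaphorins mostly bind neuropilins, which lack a signalling domain of their own and pair with plexins, whereas membrane-bound semaphorins usually bind plexins directly. Ephrins are held at the cell surface and bind Eph receptor tyrosine kinases on a neighbouring cell, so both cells can respond. Netrins bind DCC, neogenin and Unc5 receptors, and Slits bind Robo receptors and repel migrating cells. In the intervertebral disc, whose centre normally has no nerves, semaphorins have been studied as barriers to nerve ingrowth.

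Values are the deposited ones, treated as FPKM (fragments per transcript length and library size), a scale per length on which levels of different genes can be set side by side. Each log2 fold change is the serum-starved mean less the control mean of log2(value + 1), given with its standard error (SE), and understates the change of low genes. Folds are ratios of the mean deposited values. The verbs rose and fell are kept for genes whose adjusted p in limma (Benjamini-Hochberg over all 11493 tested genes) did not exceed 0.05, and every adjusted p below is from limma. Library sums ran from 447788 to 473452 in the serum-starved and from 522165 to 530095 in the control group, and the depth in reads is unknown. The nucleus pulposus and chondrocyte markers summed to 124 to 176 in control and 74.0 to 85.6 in serum-starved libraries. That gap came from Acan, and the other markers went both ways. Acan fell 25.4-fold, from 77.5 ± 28.1 to 3.05 ± 0.333 (adjusted p = 2.79e-06), Car12 fell 35.3-fold to 0.05 ± 0.0361, Sox9 fell 4.03-fold, Krt8 2.01-fold and Foxf1 1.53-fold, whereas Pax1 rose 1.86-fold. Cd24, below the filter and not tested, was at 0.37 to 0.56 in serum-starved and 0.04 to 0.14 in control libraries. Krt18 was listed at 0 in every library and Col2a1 was at most 0.06. Endothelial markers summed to between 0.58 and 1.19 and neuronal ones to between 1.42 and 1.75 in every library, 2 of 3 matched genes in each list being below 1 throughout. The Schwann cell marker Sox10 was listed at 0 in every library. Immune markers summed to 23.46 to 29.94 in control and 10.6 to 14.16 in serum-starved libraries, but not uniformly: Cd14 fell 2.91-fold, Cd68 rose 1.73-fold from 1.96 ± 0.467 to 3.38 ± 0.6, and Csf1r was at most 0.25. The fibroblast markers Col1a1, Mkx and Scx summed to 1696 to 2093 in control and 2705 to 2798 in serum-starved libraries. That sum was mostly Col1a1, whose mean rose from 1799 to 2697, and the markers did not all move together. Mkx rose 2.96-fold to a mean of 10.63. Scx had means of 42.26 in control and 37.25 in serum-starved libraries, overlapped between groups and did not pass (adjusted p = 0.193). For the mural markers Cspg4, Myh11, Pdgfrb and Rgs5 the sums were 154 to 165 and 129 to 146, within which Cspg4 fell 2.88-fold, Pdgfrb rose 1.88-fold and Myh11 rose 1.67-fold. The part of these markers in the results below was not tested. In bulk RNA, fewer cells of a type and less RNA per cell cannot be told apart.

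More guidance genes were higher than lower in serum-starved cells. The test called 28 of the 40 tested members, 21 of them higher and 7 lower, and 12 did not pass. Among all tested genes 31.7% rose and 29.4% fell, against 52.5% and 17.5% of the tested members. In either direction 61.1% of all tested genes and 70.0% of the tested members changed. The median log2 fold change was 0.40 over the tested members and 0.03 over all tested genes. The filter itself favours genes that differ: Epha7, Nrp1, Plxnb1, Robo2, Sema3a and Sema5a reached it in serum-starved libraries only, and Sema6b in control libraries only. With no filter beyond a value above 0 in some library, 23 of 62 members rose and 7 fell, where 24.0% and 21.5% of all genes did. When every library was scaled to the same total, the median of all genes moved to 0.20, calls over all genes were 69.5% rises in place of 51.8%, and 26 members rose and 5 fell.

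**Figure D1:**
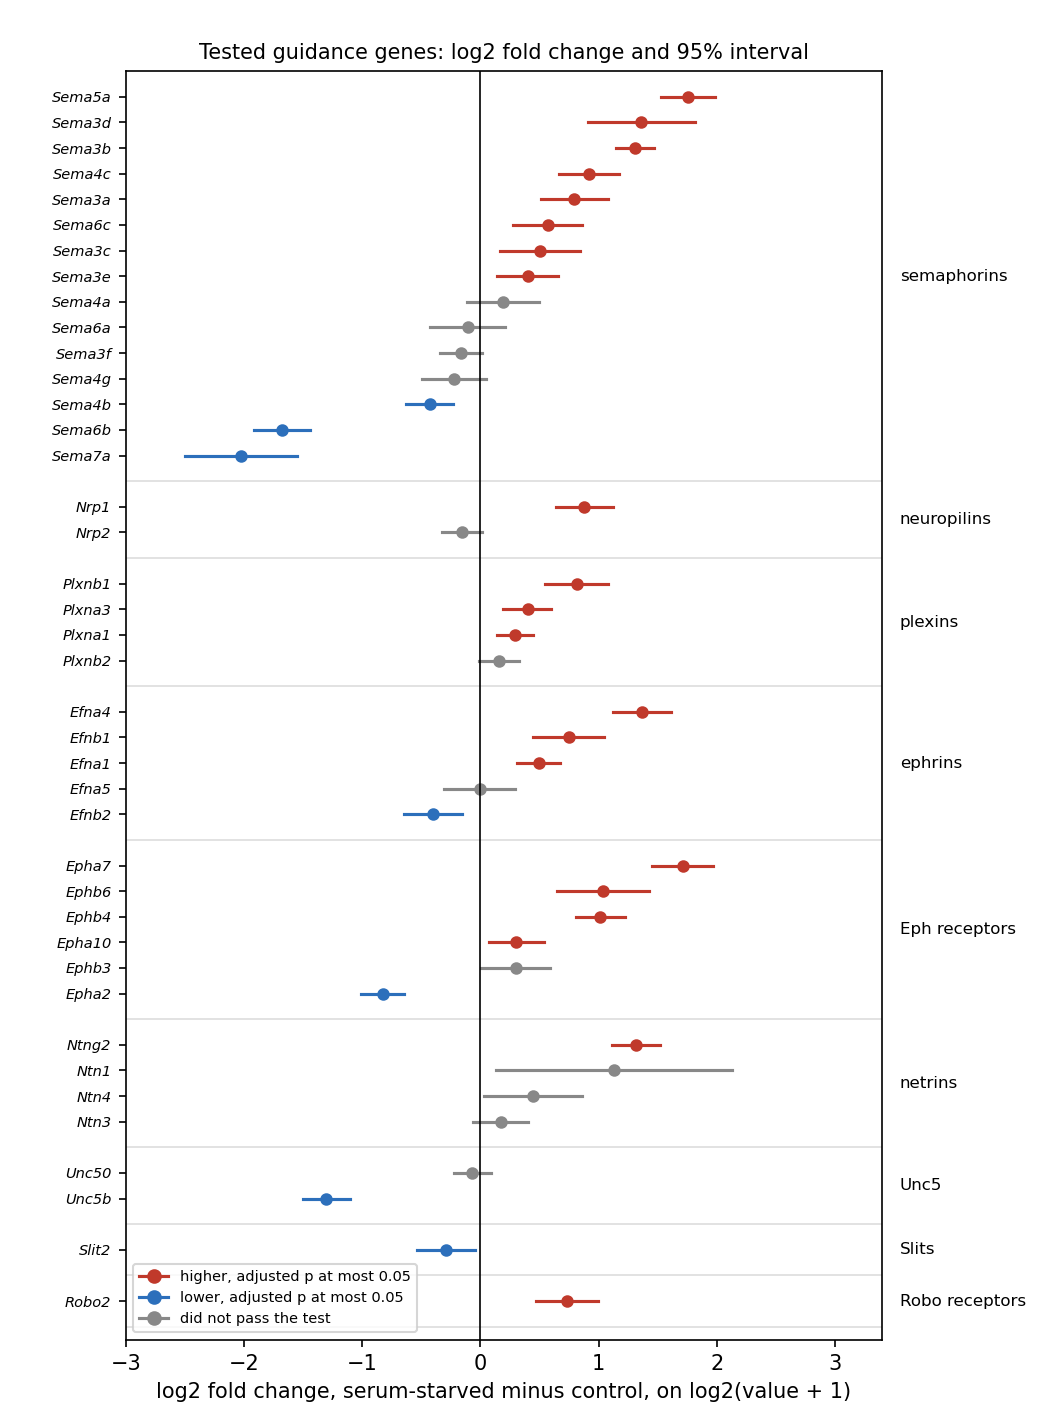
Log2 fold change of the 40 tested guidance genes (x axis, serum-starved minus control on log2(value + 1)), with bars for the 95% interval from limma, ordered within each family. Red genes rose (21), blue genes fell (7) and grey genes did not pass the test (12). Sema7a and Sema6b lie farthest to the left, Sema5a and Epha7 farthest to the right.

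Promoter windows are shown for members that carry the main contrasts below: Sema3c, the most abundant ligand, Unc5b, the most abundant netrin receptor, and Epha2 and Ephb4, Eph receptors that moved in opposite directions. They were chosen after their values were seen. Each window holds the 250 bases before the gene's start in RefSeq on the GRCr8 assembly, 5′ to 3′ on the gene's strand, and capitals mark the matches to the motifs searched.
Sema3c, chr4:18699628-18699877, minus strand: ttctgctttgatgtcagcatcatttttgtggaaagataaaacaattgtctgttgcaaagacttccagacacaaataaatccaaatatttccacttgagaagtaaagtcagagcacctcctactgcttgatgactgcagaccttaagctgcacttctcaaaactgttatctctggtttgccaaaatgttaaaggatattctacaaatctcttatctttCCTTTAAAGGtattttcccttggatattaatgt
Unc5b, chr20:29307271-29307520, minus strand: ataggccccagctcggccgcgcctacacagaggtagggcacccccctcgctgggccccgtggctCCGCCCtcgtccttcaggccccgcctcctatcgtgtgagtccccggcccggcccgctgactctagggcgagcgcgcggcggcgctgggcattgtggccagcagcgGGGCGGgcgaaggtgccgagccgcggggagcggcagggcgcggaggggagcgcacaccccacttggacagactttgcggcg
Epha2, chr5:158888379-158888628, plus strand: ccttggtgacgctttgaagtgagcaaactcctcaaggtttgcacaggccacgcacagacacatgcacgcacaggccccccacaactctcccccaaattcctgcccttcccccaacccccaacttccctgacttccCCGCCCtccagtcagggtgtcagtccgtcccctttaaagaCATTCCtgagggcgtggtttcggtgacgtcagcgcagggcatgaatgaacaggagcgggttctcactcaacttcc
Ephb4, chr12:24988389-24988638, minus strand: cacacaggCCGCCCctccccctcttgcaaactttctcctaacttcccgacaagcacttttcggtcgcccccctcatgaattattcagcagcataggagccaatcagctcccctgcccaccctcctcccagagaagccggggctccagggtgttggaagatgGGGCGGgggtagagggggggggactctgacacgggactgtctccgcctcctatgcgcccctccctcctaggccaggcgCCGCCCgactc
The capitals mark an SRF CArG box, the serum response element core, in Sema3c, 2 SP1 matches in Unc5b, an SP1 and a TEAD match in Epha2, and 3 SP1 matches in Ephb4. Such windows were found for 50 of the 64 members, taking the first listed start of each gene. Both strands were searched for SP1 (GGGCGG), AP-1 (TGANTCA), EGR (GCGNGGGCG), TEAD (GGAATG), E-box (CACGTG), FOXO (GTAAACA), E2F (TTTCGCGC) and the CArG box, and EGR matches can overlap SP1 matches. The CArG box stood in 1 of 50 member windows, that of Sema3c, and in 1.5% of all 27457 windows of this length. TEAD letters stood in 5 member windows (10.0%) and in 11.8% of all windows, and EGR letters in 8 (16.0%), in 8.79% of windows of tested genes and in 4.53% of all. Of the 8 members with EGR letters, 6 were below the filter, 1 rose, 0 fell and 1 did not pass. SP1 letters stood in 8 of 17 windows of members that rose, in 4 of 6 of those that fell, in 60.8% of windows of tested genes and in 32.4% of all windows. AP-1 letters stood in 1 member window (Epha10) and in 6.36% of all windows, and FOXO letters in 1 (Efna1) and in 3.25%. E-box letters stood in 4 member windows (8.0%) and in 5.79% of all, and E2F letters in 0 and in 0.262%. Shares in windows of tested genes were 4.3% for AP-1, 1.9% for FOXO, 8.55% for E-box and 0.545% for E2F letters. For TEAD letters that share was 9.74% and for the CArG box 1.13%. The windows also differed in base content: GC was 35.2% in Sema3c, 58.4% in Epha2, 64.4% in Ephb4 and 75.2% in Unc5b, against a median of 60.4% over tested genes. A match describes letters in the window, and binding was not measured.

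Among the secreted class 3 semaphorins, 5 of 6 tested genes rose and 0 fell, where 31.7% and 29.4% of all tested genes did. Of these 5, Sema3a reached the filter in serum-starved libraries only. Sema3c, a ligand for neuropilins known for guiding cardiac and vascular cells, was by far the most abundant of all guidance genes. It was at 471, 642 and 426 in serum-starved replicates 1, 2 and 3 and at 399, 333 and 339 in the controls. All 3 serum-starved libraries were above the controls, with the widest gap in serum-starved replicate 2. The mean rose 1.44-fold, from 357 ± 36.8 to 513 ± 114 (SD, n = 3 each), a log2 fold change of 0.50 ± 0.15 (SE) with an adjusted p of 0.0173. Without control replicate 2 the log2 fold change was 0.46 and the adjusted p 0.0538. Sema3c made up 75.7% ± 2.11 of the summed semaphorin value in control and 78.6% ± 2.82 in serum-starved libraries (SD, n = 3 each).

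The largest fold changes in this class were in less abundant genes. Sema3b, a ligand of neuropilins first known as a candidate tumour suppressor, was at 31.7, 29.7 and 28.9 in serum-starved and at 11.2, 12.3 and 11.2 in control libraries. It rose 2.61-fold, from 11.5 ± 0.638 to 30.1 ± 1.45, with a log2 fold change of 1.31 ± 0.07 (SE) and an adjusted p of 2.11e-06. Sema3d, which repels axons and endothelial cells, was at 12.8, 17.1 and 11.6 in serum-starved and at 5.77, 5.47 and 3.23 in control libraries. Again the groups were apart, the highest value being in serum-starved replicate 2 and the lowest in control replicate 3. Sema3d rose 2.87-fold (log2 fold change 1.36 ± 0.20, adjusted p = 0.000479). Sema3a, the prototype axon repellent of the family, rose from 0.607 ± 0.0473 to 1.81 ± 0.404, 2.98-fold, but stayed the lowest of the 5. Sema3e, which signals through plexin D1 without a neuropilin, rose 1.34-fold from 15.1 ± 1.99 to 20.2 ± 2.29, with an adjusted p of 0.0143, and of 0.0519 without serum-starved replicate 2.

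Sema3f, a repellent ligand of neuropilin 2, did not pass the test. It was at 41.4, 43.3 and 43.2 in serum-starved and at 43.1, 51.3 and 50.1 in control libraries, and the groups overlapped. Its log2 fold change was -0.17 with a 95% interval of -0.35 to 0.01 (adjusted p = 0.0904, 0.0154 without control replicate 1 and 0.0218 with library weights). The ratio of the Sema3f to the Sema3b value was 4.17 ± 0.32 in control and 1.42 ± 0.0998 in serum-starved libraries (SD, n = 3 each), with ranges of 3.85 to 4.49 and 1.31 to 1.5 that did not overlap. Sema3g was below the filter, at most 0.13 in any library. In RefSeq's gene order on GRCr8, Sema3a and Sema3d are adjacent, while 4 other protein-coding genes stand between Sema3c and Sema3e and 3 between Sema3b and Sema3f.

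The neuropilins differed in level by far more than they differed between conditions. Nrp2, a coreceptor for Sema3c and Sema3f, was at 152, 148 and 161 in serum-starved and at 187, 166 and 162 in control libraries. The lowest control and the highest serum-starved library nearly touched, and the log2 fold change of -0.16 (95% interval -0.33 to 0.02) did not pass (adjusted p = 0.1). Nrp1, the coreceptor for Sema3a and for VEGF, was at 1.79, 2.06 and 1.7 in serum-starved and at 0.53, 0.66 and 0.46 in control libraries. It rose 3.36-fold, with a log2 fold change of 0.88 ± 0.11 and an adjusted p of 0.000175, and reached the filter in serum-starved libraries only. Nrp2 was 319 ± 58.1 times the level of Nrp1 in control and 84.0 ± 11.5 times in serum-starved libraries (SD, n = 3 each).

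Of the plexins, the signalling receptors of this system, 3 of 4 tested genes rose and 0 fell, beside 31.7% and 29.4% of all tested genes. Plxnb1 reached the filter in serum-starved libraries only. The median log2 fold change of the tested plexins was 0.35, and 0.10 with no filter. Plxnb2, a receptor for class 4 semaphorins and the most abundant plexin, was at 83.1, 89.8 and 85.6 in serum-starved and at 74.3, 73.0 and 84.5 in control libraries. Control replicate 3 lay inside the serum-starved range, and the log2 fold change of 0.16 (95% interval -0.01 to 0.33) did not pass (adjusted p = 0.0938). It did pass without control replicate 3 (0.22, adjusted p = 0.0183) and after quantile normalization (adjusted p = 0.00983). It also passed with total scaling (adjusted p = 0.00478) and with library weights (adjusted p = 0.0152). The reference also names a pseudogene of Plxnb2, and the sources used here do not say how reads matching both were counted. Plxna1, a partner of neuropilins, was at 18.9, 20.2 and 18.6 in serum-starved and at 15.9, 15.6 and 15.1 in control libraries. The small rise, 1.24-fold, exceeded the spread within groups (log2 fold change 0.30 ± 0.07, adjusted p = 0.0047). Plxna3, another neuropilin partner, rose 1.42-fold to 4.51 ± 0.202, and Plxnb1, the receptor of Sema4d, rose 4.40-fold from 0.290 ± 0.0721 to 1.28 ± 0.225. The other plexins were below the filter. Plxnd1, the Sema3e receptor, was at 0.62 to 0.72 in serum-starved and 0.86 to 1.49 in control libraries, and Plxna2 at 0.45 to 0.65 and 0.74 to 1.37, neither of them tested. Plxnc1, the plexin that binds Sema7a, was at most 0.07, and Plxna4 at most 0.11.

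**Figure D2:**
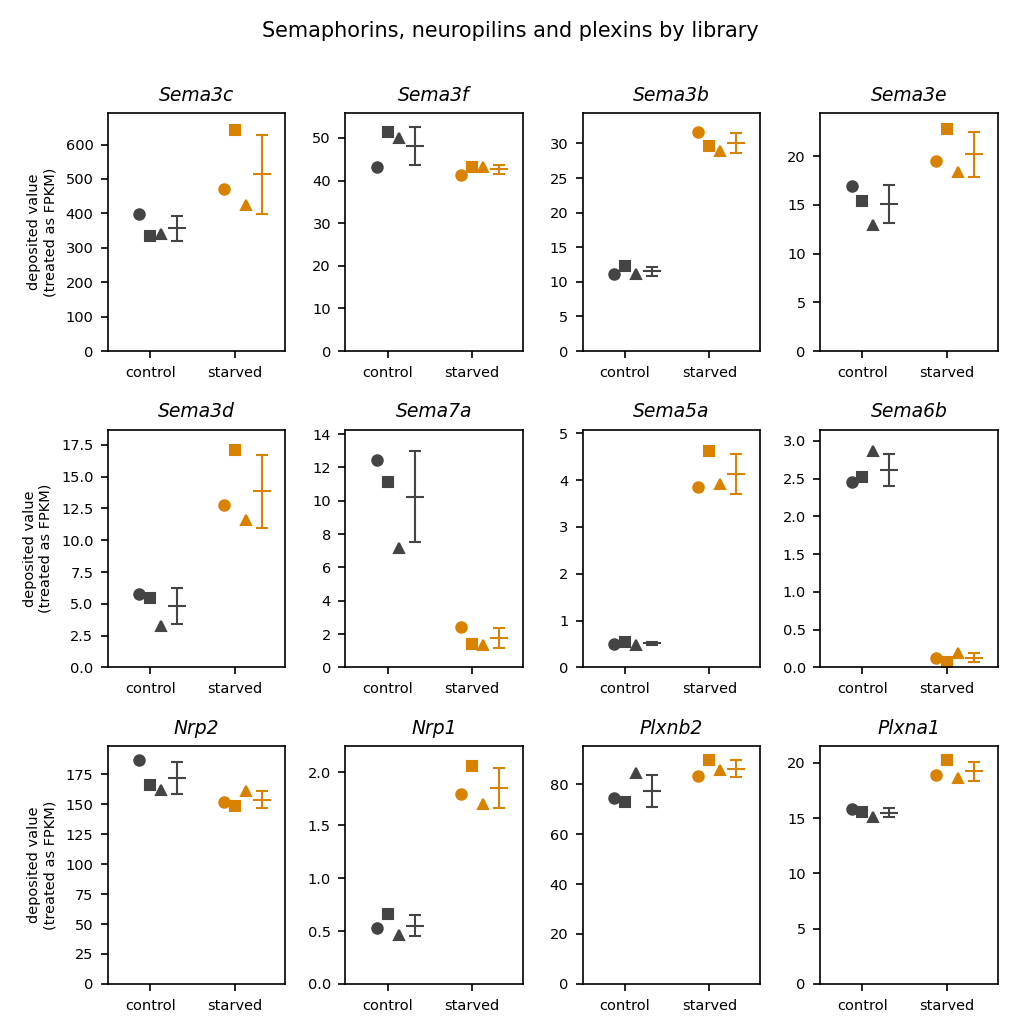
Deposited value (y axis, treated as FPKM, linear from 0) of 8 semaphorins, 2 neuropilins and 2 plexins in control (grey) and serum-starved (orange) libraries. Circles, squares and triangles are replicates 1, 2 and 3 and the bar is the mean with its SD (n = 3). Sema7a and Sema6b were lower in every serum-starved library, Sema3b, Sema3d, Sema5a and Nrp1 were higher in each, and the groups of Sema3f and Plxnb2 overlapped.

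The membrane-bound semaphorins went both ways, and the largest falls of all guidance genes were here. Sema7a, a lipid-anchored semaphorin that binds integrins as well as plexin C1, was at 2.43, 1.42 and 1.37 in serum-starved and at 12.5, 11.1 and 7.19 in control libraries. Even control replicate 3, the lowest control, was well above the highest serum-starved library. Sema7a fell 5.89-fold, from 10.3 ± 2.74 to 1.74 ± 0.598, with a log2 fold change of -2.03 ± 0.21 and an adjusted p of 7e-05. Sema6b, a transmembrane ligand of class A plexins, was at 0.13, 0.07 and 0.19 in serum-starved and at 2.46, 2.52 and 2.86 in control libraries. Its serum-starved values lie near the bottom of the scale, so the 20.1-fold ratio is imprecise (log2 fold change -1.68 ± 0.10, adjusted p = 4.04e-06). Sema6b reached the filter in control libraries only. Sema4b fell 1.44-fold, from 5.60 ± 0.526 to 3.89 ± 0.115 (adjusted p = 0.00296).

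Sema5a, Sema4c and Sema6c rose. Sema5a, which carries thrombospondin repeats beside its semaphorin domain, was at 3.86, 4.63 and 3.92 in serum-starved and at 0.51, 0.55 and 0.49 in control libraries. This 8.01-fold rise had little spread in either group (log2 fold change 1.76 ± 0.10, adjusted p = 2.52e-06). Sema5a reached the filter in serum-starved libraries only. Sema4c, a ligand of plexin B2, was at 6.54, 6.53 and 7.39 in serum-starved and at 2.76, 2.91 and 3.78 in control libraries, 2.17-fold higher (log2 fold change 0.92 ± 0.11, adjusted p = 0.000174). Sema6c rose 1.95-fold, from 1.02 ± 0.257 to 1.99 ± 0.297 (adjusted p = 0.00493). Sema4a, Sema4g and Sema6a did not pass, with log2 fold changes of 0.19, -0.22 and -0.11, and overlapped between groups. The membrane-bound classes together summed to 28.3 ± 0.526 in serum-starved and 33.5 ± 1.65 in control libraries, against 622 ± 120 and 437 ± 34.4 for class 3 (SD, n = 3 each).

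The 5 tested ephrins split by gene rather than by class: 3 rose, 1 fell and 1 did not pass. Of all tested genes 31.7% rose and 29.4% fell. Efna5, a lipid-anchored ligand of EphA receptors and the most abundant ephrin in the serum-starved and the control means, was at 23.6, 31.3 and 24.5 in serum-starved and at 23.2, 25.5 and 31.1 in control libraries. The groups overlapped, and the log2 fold change of -0.01 had a 95% interval of -0.31 to 0.30 (adjusted p = 0.968). Efnb2, a transmembrane ligand of EphB4 known from arteries, was at 16.8, 17.8 and 16.4 in serum-starved and at 26.8, 19.7 and 22.4 in control libraries. It fell 1.35-fold (log2 fold change -0.40 ± 0.11, adjusted p = 0.0107), but with total scaling its adjusted p was 0.115. Efna4, another lipid-anchored ligand, was at 7.95, 6.07 and 6.65 in serum-starved and at 2.22, 2.04 and 1.88 in control libraries. It rose 3.37-fold, the largest change among the ephrins (log2 fold change 1.37 ± 0.11, adjusted p = 1.68e-05). Efnb1, mutated in craniofrontonasal syndrome, was at 3.13, 2.72 and 2.23 in serum-starved and at 1.21, 1.45 and 0.94 in control libraries, 2.24-fold higher (adjusted p = 0.00132). Efna1, a ligand of EphA2, rose 1.44-fold from 12.5 ± 1.07 to 18.0 ± 0.596 (adjusted p = 0.000783). Efna1, Efna3 and Efna4 stand next to each other in RefSeq's gene order, and Efna3, below the filter, was at 0.52 to 0.90 in serum-starved and 0.49 to 0.55 in control libraries. The ratio of Efnb2 to Efnb1 was 19.9 ± 5.52 in control and 6.42 ± 0.986 in serum-starved libraries (SD, n = 3 each).

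Of the 6 tested Eph receptors, 4 rose, 1 fell and 1 did not pass, beside 31.7% that rose and 29.4% that fell among all tested genes. Epha7 reached the filter in serum-starved libraries only. The receptor that fell was the most abundant one in control cells. Epha2, a receptor of ephrin-A ligands often high in dividing epithelial and tumour cells, was at 11.5, 11.7 and 11.3 in serum-starved and at 22.0, 22.5 and 19.1 in control libraries. It fell 1.85-fold, from 21.2 ± 1.85 to 11.5 ± 0.215, with a log2 fold change of -0.83 ± 0.08 and an adjusted p of 4.69e-05. Ephb4, the receptor of ephrin-B2, was at 12.1, 13.2 and 12.8 in serum-starved and at 5.06, 6.14 and 6.23 in control libraries. It rose 2.19-fold, from 5.81 ± 0.651 to 12.7 ± 0.560, with a log2 fold change of 1.01 ± 0.09 and an adjusted p of 3.31e-05. The gene Zan overlaps Ephb4 in the reference and was at most 0.03 in any library.

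Epha2 thus made up 60.2% ± 5.05 of the summed Eph receptor value in control and 28.9% ± 0.946 in serum-starved libraries (SD, n = 3 each). For Ephb4 the share was 16.5% ± 1.54 and 32.0% ± 0.610, and the ratio of Epha2 to Ephb4 was 3.69 ± 0.648 in control and 0.903 ± 0.0381 in serum-starved libraries. The summed EphA value was 23.7 ± 1.90 in control and 17.6 ± 0.227 in serum-starved libraries, whereas the EphB sum was 11.5 ± 1.83 and 22.2 ± 1.77. These sums and shares are descriptions of the same values and were not tested.

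**Figure D3:**
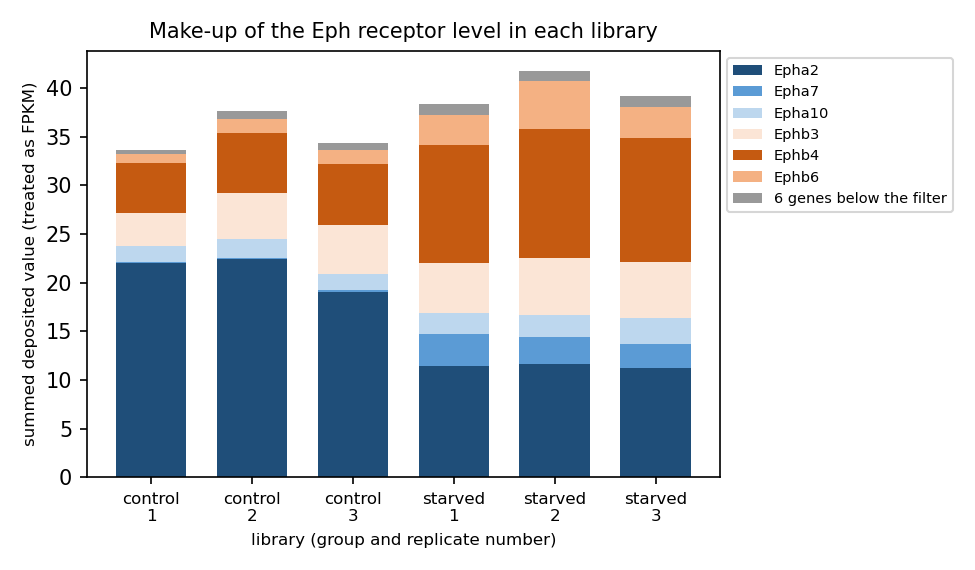
Summed deposited value (y axis, treated as FPKM) of the 12 Eph receptor genes in each of the 6 libraries (x axis), split by gene, with EphA genes in blue, EphB genes in orange tones and the 6 genes below the filter in grey. Epha2 is the largest part of each control bar (55.4% to 65.5%), while in serum-starved libraries Epha2 and Ephb4 are about equal, with a ratio of 0.879 to 0.947.

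Among the less abundant Eph receptors, Epha7, known from the developing brain, was at 3.22, 2.70 and 2.42 in serum-starved and at 0.14, 0.11 and 0.20 in control libraries. It rose 18.5-fold, a ratio that rests on control values near 0 (log2 fold change 1.71 ± 0.11, adjusted p = 5.9e-06). Ephb6, whose kinase domain is inactive, was at 3.15, 4.94 and 3.14 in serum-starved and at 0.92, 1.43 and 1.52 in control libraries, 2.90-fold higher (log2 fold change 1.04 ± 0.17, adjusted p = 0.000917). Epha10, also without kinase activity, rose 1.37-fold to 2.39 ± 0.271 with an adjusted p of 0.0301. That call was lost without serum-starved replicate 2 (adjusted p = 0.0562) or 3 (0.111), without control replicate 1 (0.0778) or 3 (0.0727), and after quantile normalization (0.0582). Ephb3 did not pass (log2 fold change 0.30, 95% interval 0.01 to 0.59, adjusted p = 0.0703), but did without control replicate 3 (0.0348) and with total scaling (0.0137). It also passed with library weights (0.0464) and with the replicate number as a block (0.0379). Of the receptors below the filter, Epha1 was at 0.38 to 0.57 in serum-starved and 0.06 to 0.11 in control libraries. Ephb1 was at 0.08 to 0.26 in serum-starved libraries and listed at 0 in all controls, Epha4 was between 0.33 and 0.73, and Epha5, Epha8 and Ephb2 were at or near 0.

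The netrins, laminin-related secreted or anchored cues, had 1 gene that rose and 3 that did not pass among 4 tested. Of all tested genes 31.7% rose and 29.4% fell. Ntn1, netrin 1 itself, was at 18.7, 34.4 and 20.8 in serum-starved replicates 1, 2 and 3 and at 7.87, 5.71 and 23.3 in control replicates 1, 2 and 3. Control replicate 3 lay inside the serum-starved range, while the other controls were far below it. The log2 fold change of 1.13 had a wide 95% interval, 0.13 to 2.13, and missed the threshold with an adjusted p of 0.0501. It passed under 5 of 16 alternatives: without control replicate 3 (1.68, adjusted p = 0.000891), with library weights (0.00408), total scaling (0.0275), quantile normalization (0.0419) and the filter at 5 (0.0476). The adjusted p of Ntn1 was highest, 0.156, without serum-starved replicate 2. Ntn4, a netrin of basement membranes, was at 13.7, 14.4 and 14.9 in serum-starved and at 12.5, 7.06 and 12.2 in control libraries, with control replicate 2 the lowest. Its log2 fold change of 0.44 (95% interval 0.03 to 0.86) did not pass (adjusted p = 0.0612), but did without control replicate 1 (0.033) or 3 (0.0375). It also passed after quantile normalization (0.0475), with total scaling (0.0168), with library weights (0.00612) and with the replicate number as a block (0.049). Ntng2, a lipid-anchored netrin-G that binds a synaptic adhesion protein rather than DCC or Unc5, was at 4.17, 4.0 and 3.76 in serum-starved and at 0.99, 0.93 and 1.06 in control libraries. It rose 4.0-fold with little spread (log2 fold change 1.32 ± 0.09, adjusted p = 6.59e-06). Ntn3 was at 1.82 to 2.03 and 1.36 to 1.77 and did not pass (adjusted p = 0.169).

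The netrin receptor Unc5b fell, whereas Ntn1, Ntn3 and Ntn4 did not pass the test. Unc5b, a dependence receptor that can promote cell death when no netrin is bound, was at 37.8, 33.4 and 33.4 in serum-starved and at 94.2, 90.5 and 78.4 in control libraries. It fell 2.51-fold, from 87.7 ± 8.26 to 34.9 ± 2.55, with a log2 fold change of -1.30 ± 0.09 and an adjusted p of 6.34e-06. Over the 16 alternatives the log2 fold change of Unc5b stayed between -1.38 and -1.11. Unc5c was below the filter at 0.18 to 0.56, Unc5d was at most 0.03, and the other netrin receptor Dcc was listed at 0 in every library. Neo1, which encodes neogenin, rose 1.68-fold from 7.78 ± 0.340 to 13.1 ± 0.207 (adjusted p = 6.5e-05). The level of Unc5b was 10.4 ± 6.39 times that of Ntn1 in control and 1.53 ± 0.530 times in serum-starved libraries (SD, n = 3 each), the control ratio being 3.37 in replicate 3 and about 12 and 15.9 in replicates 1 and 2. Unc50, matched by symbol alone, was at 21.65 to 24.96 in all libraries and did not pass (adjusted p = 0.395).

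Slit2 was the abundant Slit and the only one tested. It was at 31.4, 35.2 and 32.3 in serum-starved and at 48.2, 37.0 and 37.4 in control libraries. The groups were apart by a small margin, with control replicate 1 the highest. Slit2 fell 1.24-fold (log2 fold change -0.29 ± 0.11, adjusted p = 0.0407), a call that was lost under 8 of 16 alternatives. Its adjusted p was 0.109 without serum-starved replicate 1, 0.105 without serum-starved replicate 3, 0.0888 without control replicate 1, 0.183 after quantile normalization and 0.434 with total scaling. Robo2, its receptor, was at 1.32, 1.61 and 1.42 in serum-starved and at 0.37, 0.64 and 0.42 in control libraries, a 3.04-fold rise at a low level (log2 fold change 0.73 ± 0.11, adjusted p = 0.00071). Robo2 reached the filter in serum-starved libraries only. Robo1 was below the filter, between 0.13 and 0.31, and Slit3 between 0.24 and 0.65.

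**Figure D4:**
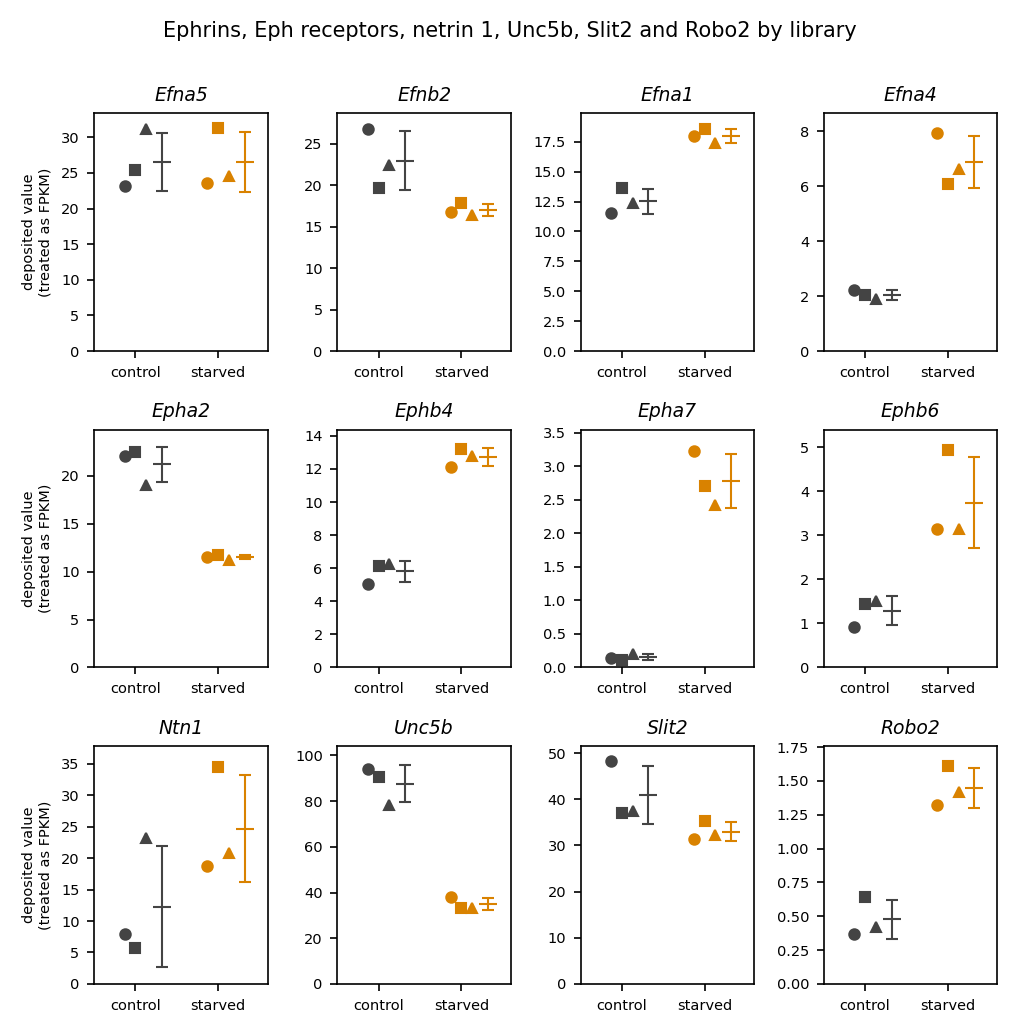
Deposited value (y axis, treated as FPKM, linear from 0) of 4 ephrins, 4 Eph receptors, Ntn1, Unc5b, Slit2 and Robo2 in control (grey) and serum-starved (orange) libraries. Circles, squares and triangles are replicates 1, 2 and 3 and the bar is the mean with its SD (n = 3). Epha2 and Unc5b were lower and Efna4, Ephb4, Epha7, Ephb6 and Robo2 higher in every serum-starved library, and control replicate 3 of Ntn1 lies among the serum-starved values.

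In all, 24 members were below the filter, 10 of them at 0.1 or less in every library and 2, Epha5 and Ntn5, listed at 0 throughout. By level, the control libraries were led by Sema3c, Nrp2, Unc5b, Plxnb2, Sema3f and Slit2, followed by Efna5, which reached 31.1 in control replicate 3. The summed value of all 64 members was 1022 ± 54.3 in control and 1168 ± 134 in serum-starved libraries (SD, n = 3 each), with serum-starved replicate 2 the highest at 1321. That library was also the highest of its group for 22 of the 40 tested members.

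Genes that act with these families were read from a list of coreceptors, cytoplasmic partners and cytoskeletal effectors. Of 69 matched genes 59 were tested: 25 rose (42.4%) and 17 fell (28.8%), with 17 that did not pass, against the 31.7% and 29.4% of all tested genes. On the log2(value + 1) scale the largest rise was in Rnd3, a small GTPase that opposes RhoA, from 74.9 ± 3.54 to 244 ± 11.5, with a log2 fold change of 1.69 ± 0.07 (adjusted p = 3.31e-07). Pdzrn3, a ubiquitin ligase, rose 3.06-fold to 41.6 ± 6.58. L1cam, an adhesion molecule that joins neuropilin 1 in the Sema3a receptor, rose from 0.200 ± 0.114 to 2.49 ± 0.449. Its ratio of means, 12.4 against 3.25 for Rnd3, rests on control values near 0, and L1cam reached the filter in serum-starved libraries only. Srgap3, a GTPase-activating protein of the Slit-Robo pathway, rose 2.94-fold to 5.51 ± 0.265, and Rgma, a repulsive ligand of neogenin, rose 2.13-fold to 13.4 ± 2.30. The largest falls were in Ngef, the exchange factor ephexin that acts below EphA receptors, from 2.04 ± 0.414 to 0.277 ± 0.1, and in Rnd1, a GTPase that binds plexins, 2.69-fold to 1.43 ± 0.355. Ngef reached the filter in control libraries only. Mical2, an actin-oxidising enzyme, fell 1.89-fold to 17.3 ± 5.28, and Draxin, a secreted protein that binds netrin and DCC, fell 1.93-fold to 4.92 ± 0.201. Farp2, a plexin-associated exchange factor, fell 1.69-fold to 5.26 ± 0.520. The highest adjusted p among these 10 genes was 0.00222 (Mical2). Of the 21 tested shared cytoskeletal effectors 7 rose, 6 fell and 8 did not pass.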

How the data were processed

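Each library has its own table, in which the authors give every gene 1 value with 2 decimals. No unit stands in the headers. The deposited values are treated as FPKM, since they have decimals and their library sums differ. The tools listed per the submitters' processing notes are HISAT2, StringTie, bcl2fastq 2.0, limma and DESeq2, and the build is named as mm10, although the gene identifiers are those of rat; the annotation and the use of strand are not given in the sources used here. All 64 member identifiers matched RefSeq's GRCr8 table, used for names, gene order and promoter windows.

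Values were taken as log2(value + 1), and genes at 1 or more in at least 3 of 6 libraries were compared between 3 serum-starved and 3 control libraries with limma 3.58.1 in R 4.3.3 (intensity trend, no covariate, 4 residual degrees of freedom, two-sided, Benjamini-Hochberg over 11493 genes). The fit was also run on simulated data with independent noise and far fewer changed genes than were called here. It therefore does not test the calls in these data. An exact permutation test of 3 against 3 cannot go below p = 0.1. No counts are given, so the depth is unknown. Tables were joined with Python 3.11.15 and pandas 2.3.3. Values in every library were given for members that changed by at least 0.5 (log2) with a higher group mean of 2 or more and for the 2 most abundant tested members of each family; of the other pathway genes, the 5 largest rises and falls were named, and Dcc and Neo1 were added after their values were seen. The members and lists were chosen with earlier results of these data known. Alternatives covered the pseudocount, filter, scaling, trend, library weights, a replicate block and leaving out each library with the same genes tested. The summed level of the Schwann cell markers is not reported here.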

Additional observations from a re-analysis of the deposited data

How the results depend on the processing

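Leaving out 1 library at a time gave 19 to 24 members that rose and 6 to 7 that fell. In those fits 27.6% to 31.1% of all tested genes rose and 25.7% to 29.1% fell. No member that changed turned direction in any alternative that tested it. Testing only genes at 5 or more in 3 libraries left 23 members, of which 10 rose and 6 fell. Under that filter 30.0% of all tested genes rose and 32.6% fell. With total scaling 9 of the other pathway genes fell in place of 17, and 26 members rose, where 46.1% of all tested genes rose and 20.2% fell. The sizes of family medians (log2) moved more, by construction where low genes enter, leave or are damped. For semaphorins (0.40) the median was 0.22 with a pseudocount of 5, 0.11 with no filter and 0.58 with total scaling. For plexins (0.35) it was 0.23, 0.10 and 0.52 in that order, and 0.23 with the filter at 5. For ephrins (0.49) it was 0.31, 0.14 and 0.67, and 0.24 with the filter at 5. For Eph receptors (0.66) it was 0.32, 0.30 and 0.82, with 0.30 with the filter at 5 and 0.78 with a pseudocount of 0.1. For netrins (0.79) it was 0.46 with a pseudocount of 5, 0.45 with no filter, 1.02 with library weights, and 0.48 to 0.95 when 1 library was left out. With the low pseudocount of 0.1 the log2 fold changes of Epha7 and Sema6b were 3.53 and -3.59, and with a pseudocount of 5 they were 0.59 and -0.57. With library weights, 25 members rose and 8 fell, where 35.1% and 32.9% of all tested genes did. Of the members that did not pass, Efna5, Nrp2, Sema3f, Sema6a and Unc50 changed sign with total scaling.

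Same-numbered libraries of both groups did not deviate together: the correlations of their deviations from the group means were 0.04, -0.16 and 0.10 for replicates 1, 2 and 3, and so the numbers were not taken to pair the samples. With the replicate number as a block, 22 members rose and 6 fell, where 30.5% and 28.7% of all tested genes did. Epha10 (adjusted p = 0.0512) and Slit2 (0.058) no longer passed, while Ephb3 (0.0379) and Ntn4 (0.049) passed. Depth is unknown, so how far counting noise limits the low members cannot be given.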
